A study of Mus musculus with 24 samples.

Results

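Malat1, Neat1, Tug1 and Firre are long noncoding RNAs (lncRNAs) described from the nucleus, and Nono, Sfpq and Pspc1 encode the 3 DBHS proteins of the paraspeckle. The 7 genes were taken by their Ensembl gene IDs from the 29759 genes of each of 2 expression tables. They were chosen with earlier results of these data known. All 7 had a mean of at least 1 FPKM in both tables and none was lost to the filter on low values. FPKM are fragments per kilobase of transcript scaled to the size of the library, a level per length. How the libraries were normalized here is not given. The cells come from E14, an established mouse embryonic stem cell line, so they are 1 genetic background. Epiblast-like cells (EpiLC) were harvested on day 3 of conversion in N2B27 medium on gelatin, with 20 ng/ml of activin A and 12 ng/ml of bFGF. Naive embryonic stem cells (nESC), from which they were made, stayed in serum-free N2B27 with LIF, the MEK inhibitor PD0325901 and the GSK3 inhibitor CHIR99021. For each state, RNA was sequenced from chromatin, nucleoplasm and cytoplasm and, unfractionated, from whole cells (total), with 3 libraries in each of the 8 groups.

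Malat1 is an abundant RNA of nuclear speckles, the domains in which splicing factors collect. Neat1 is the scaffold of paraspeckles, bodies beside the speckles that form on its long transcript when NONO and SFPQ bind it, and in human embryonic stem cells NEAT1 is known to be scarce until the cells differentiate. PSPC1, the remaining DBHS protein, is an RNA-binding partner that dimerises with NONO and SFPQ. Firre is transcribed from the X chromosome, carries a repeated RNA domain and binds the nuclear matrix protein HNRNPU, and Tug1 is a conserved lncRNA found in both nucleus and cytoplasm.

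Malat1 and Neat1 lie close together on chromosome 19, and both end in a sequence known to fold into a triple helix that protects a 3' end without a poly(A) tail. The 3' part of each is shown because the ends are what the 2 RNAs share in sequence. The capitals mark the 3 runs of at least 8 bases that the last 100 bases of Neat1 share with the last 400 of Malat1, written as DNA on the transcript strand (GENCODE M21 transcripts, GRCm38, the build the tables use). The first is U-rich, the second ends in a U-rich stretch and the third is A-rich.
Malat1-201, chr19:5795921-5796075, minus strand: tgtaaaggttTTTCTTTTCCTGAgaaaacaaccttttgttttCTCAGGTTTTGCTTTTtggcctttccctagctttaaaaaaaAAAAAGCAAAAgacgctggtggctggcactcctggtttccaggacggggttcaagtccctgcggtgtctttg
Neat1-201, chr19:5824708-5824807, minus strand: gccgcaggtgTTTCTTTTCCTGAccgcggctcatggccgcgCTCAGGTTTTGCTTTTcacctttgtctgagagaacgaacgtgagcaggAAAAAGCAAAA
The runs TTTCTTTTCCTGA, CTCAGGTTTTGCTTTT and AAAAAGCAAAA were then searched on the transcript strand only. All 3 in this order within 120 bases were found in 2 of 141767 annotated transcripts, the 2 they were taken from, while the A-rich run alone was found in 618 (0.436%). The annotated Neat1 transcript ends with the A-rich run, and the annotated Malat1 transcript goes on for 292 bases, which begin with the small tRNA-like RNA that is cut off in the cell. A match is a description of the letters and not of a structure in these cells.

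Firre is shown by its repeated exons, because reads from near-identical exons cannot be placed in one of them and its level is therefore that of the whole gene. Of the 20 exons of Firre-206, 7 are 154 or 155 bases long. The 4 of 155 bases share 96.1% to 98.7% of their bases in pairs. The most alike pair, exons 9 and 11, differ at the 2 bases in capitals.
Firre-206 exon 9, chrX:50600744-50600898, minus strand: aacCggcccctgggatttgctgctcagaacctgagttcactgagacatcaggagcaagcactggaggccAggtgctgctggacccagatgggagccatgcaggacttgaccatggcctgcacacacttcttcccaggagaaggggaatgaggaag
Firre-206 exon 11, chrX:50595461-50595615, minus strand: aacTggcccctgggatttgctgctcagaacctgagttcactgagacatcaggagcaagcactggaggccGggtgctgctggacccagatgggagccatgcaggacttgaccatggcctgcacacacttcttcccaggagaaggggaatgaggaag

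The genes differ widely in length, which bears on the FPKM scale. In mm10 Malat1 spans chromosome 19, 5795690 to 5802672 (longest annotated transcript 6983 bases) and Neat1 chromosome 19, 5824708 to 5845478 (20771 bases). Tug1 lies on chromosome 11, 3639785 to 3649673, Firre on X, 50555744 to 50635321, Nono on X, 101429318 to 101448591, Sfpq on chromosome 4, 127021324 to 127037013, and Pspc1 on chromosome 14, 56720710 to 56778316. Neat1 also has an annotated transcript of 3004 bases from the same start, and 1 FPKM value per gene cannot tell the short form from the long one that builds paraspeckles. Tug1 overlaps Morc2a on the opposite strand, and annotated genes overlap Malat1 and Sfpq. The libraries keep strand, but whether the counting used it is not stated, so reads of overlapping genes may be mixed.

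The depth of the 24 libraries was worked out from the size of 1 fragment among low values. In this measure 1 FPKM in 1 kb of transcript stood for 15.5 to 23.99 fragments in chromatin, 34.0 to 46.7 in nucleoplasm, 12.1 to 22.2 in cytoplasm and 31.8 to 42.0 in total RNA. Fewest fragments stood behind Tug1 in nESC cytoplasm replicate 1, about 1090. Neat1 in EpiLC cytoplasm replicate 1 rested on about 1546 if all came from the long transcript and on 224 if all came from the short one. The markers of each state stood where the labels put them. In total RNA the 6 naive markers summed to 33.6 to 36.3 FPKM in EpiLC and 932 to 966 in nESC, and the 5 formative markers to 1089 to 1124 in EpiLC and 30.8 to 32.1 in nESC. Markers of primitive endoderm summed to 1.59 FPKM at most in total RNA, and those of fibroblasts or feeders to 8.02 to 9.85 in EpiLC and 0.411 to 7.90 in nESC. Total RNA held more of the mesoderm and neural markers, 18.98 to 20.63 in EpiLC and 21.87 to 23.26 in nESC. Trophectoderm markers summed there to 14.81 to 15.08 in EpiLC and 16.6 to 17.55 in nESC, and 2-cell-like markers to 2.49 to 2.95 and 6.94 to 8.45. The 5 primitive endoderm markers summed to 2.35 to 3.58 in EpiLC chromatin and 0.750 to 1.28 in EpiLC cytoplasm, where Gata6 was at 0 in all 3 libraries. The 6 messages of ribosomes and metabolism summed to 4569 to 7205 FPKM in EpiLC chromatin and 65330.0 to 73230.0 in EpiLC cytoplasm, and to 4709 to 6224 in nESC chromatin and 96600.0 to 111800.0 in nESC cytoplasm. There were 3 EpiLC libraries that stood apart, all numbered 3. Chromatin replicate 3 held 18480.0 FPKM of 4 mitochondrial messages, against 4761 and 3235 in replicates 1 and 2. It also held 7205 FPKM of the 6 messages of ribosomes and metabolism, against 4569 and 4570. Nucleoplasm replicate 3 held 41070.0 FPKM of them, against 25560.0 and 24580.0. Cytoplasm replicate 3 held 664 FPKM of the nuclear RNAs Kcnq1ot1, Meg3 and Rian, against 533 and 557. Whether a replicate is a culture of its own is not labelled, and the p-values cover no more than the differences among these libraries, part or all of which may be technical.

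By group means, Neat1 was the member farthest apart between the states in chromatin, nucleoplasm and total RNA, while in cytoplasm Sfpq was (2.23-fold higher in EpiLC). In chromatin it had 14.7, 16.4 and 16.9 FPKM in EpiLC, against 128, 95.3 and 92.5 in nESC. In nucleoplasm it had 3.15, 3.18 and 4.27 in EpiLC, against 23.5, 26.2 and 26.5 in nESC. All 3 EpiLC libraries lay below all 3 nESC libraries in both nuclear fractions. The cytoplasm held 3.98, 3.999 and 5.03 FPKM in EpiLC, against 9.96, 7.64 and 9.49 in nESC, and total RNA held 4.72, 4.07 and 4.64 in EpiLC, against 24.03, 25.4 and 28.0 in nESC. These groups did not overlap either. The nESC mean was 5.77 times the EpiLC mean in total RNA (4.48 ± 0.352 in EpiLC and 25.8 ± 2.03 in nESC, SD, n = 3 each), 6.57 times in chromatin, 7.20 times in nucleoplasm and 2.08 times in cytoplasm. The 2 tables were normalized separately, so levels across the states have no test. Of all genes in total RNA, 12.9% stood at least 2-fold lower in EpiLC. Scaled to one sum per library, the log2 difference of Neat1 was -2.31 in total RNA, against -2.53 as deposited, and -0.86 in cytoplasm, against -1.06. In bulk RNA, fewer cells with Neat1 and less Neat1 per cell cannot be told apart. Within a state, Neat1 was highest in chromatin. In EpiLC the ranges of total RNA and cytoplasm, and of cytoplasm and nucleoplasm, overlapped, and in nESC those of total RNA and nucleoplasm did.

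Malat1 was the highest of the members per length in chromatin, nucleoplasm and total RNA of both states. Chromatin held 5549, 4519.8 and 3565 FPKM in EpiLC and 4762, 4391 and 5438 in nESC. Nucleoplasm held 1799.9, 1576 and 1545 FPKM in EpiLC and 3809.8 and 3589.5 in nESC, where replicate 3 is listed at 0 and was treated as missing. Chromatin overlapped between the states, and nucleoplasm was lower in all EpiLC libraries, with a nESC mean 2.26 times the EpiLC mean. The cytoplasm held 157, 191 and 315 FPKM in EpiLC and 172, 181 and 166 in nESC, and the high EpiLC value is that of replicate 3. Total RNA held 1086, 994 and 1113 FPKM in EpiLC and 579, 630.0 and 686 in nESC, so Malat1 was higher in EpiLC there (1.69-fold) while it was lower in nucleoplasm. In both states the order was chromatin, nucleoplasm, total RNA and cytoplasm, with no overlap between neighbours.

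Firre followed a similar order of fractions. Chromatin held 165, 190.0 and 163 FPKM in EpiLC and 224, 201 and 169 in nESC, and nucleoplasm 54.4, 55.7 and 60.9 in EpiLC and 115, 117 and 115 in nESC. Nucleoplasm was lower in every EpiLC library, with a nESC mean 2.03 times the EpiLC mean, and chromatin overlapped. The cytoplasm held 21.0, 22.9 and 32.5 FPKM in EpiLC and 16.7, 18.3 and 15.9 in nESC, and total RNA 56.1, 60.5 and 56.2 in EpiLC and 50.5, 47.0 and 55.3 in nESC. In EpiLC, total RNA and nucleoplasm could not be ordered, since their ranges overlapped. Tug1 lay between 93.8 and 114 FPKM in EpiLC chromatin and between 134 and 167 in nESC chromatin, with no overlap. Its nucleoplasm range was 90.1 to 98.8 in EpiLC and 96.0 to 101 in nESC, its cytoplasm range 15.4 to 27.0 in EpiLC and 13.4 to 14.3 in nESC, and its total RNA range 53.5 to 55.4 in EpiLC and 56.8 to 59.3 in nESC. In EpiLC its chromatin and nucleoplasm ranges overlapped, and in nESC chromatin was 1.58 times nucleoplasm.

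**Figure D1:**
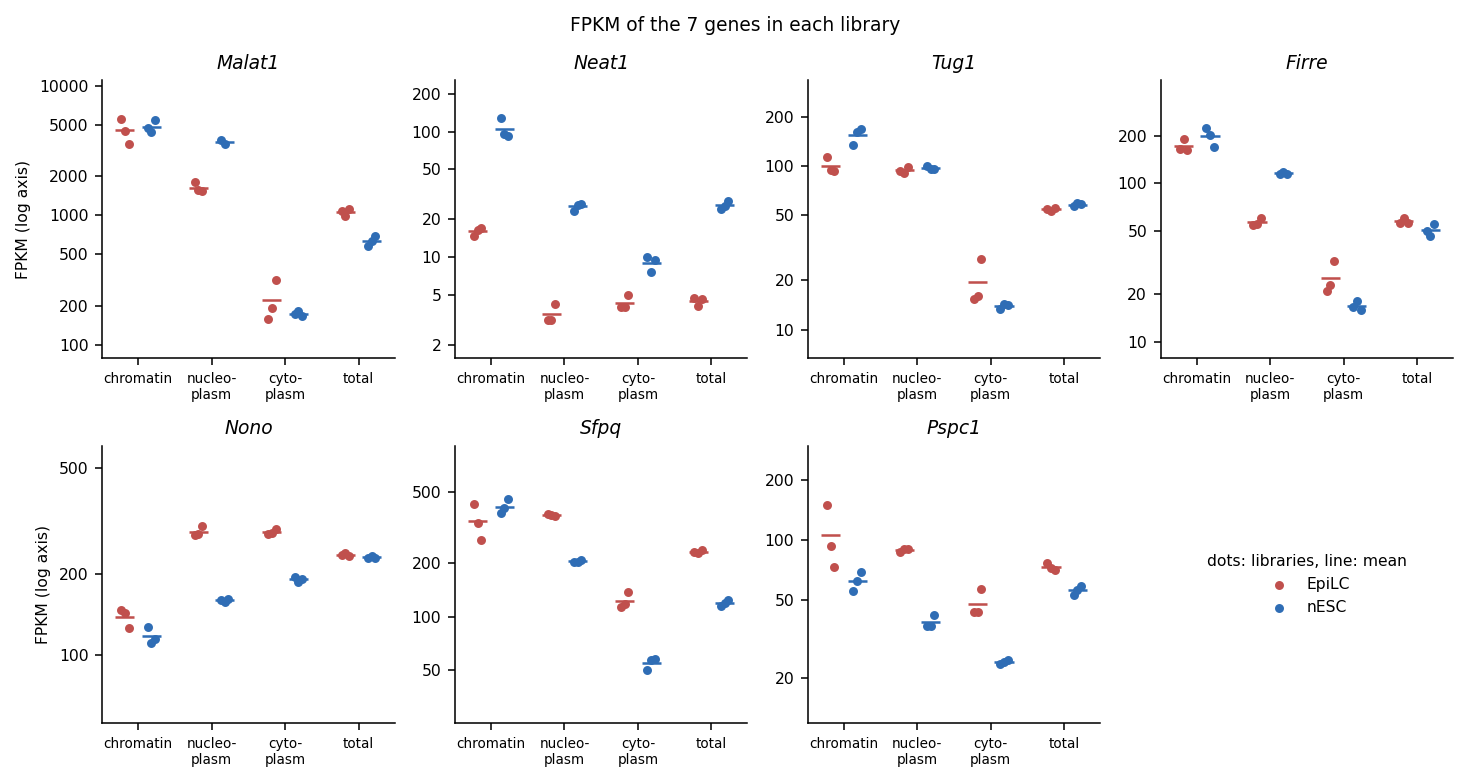
FPKM (log axis) of each of the 7 genes in chromatin, nucleoplasm, cytoplasm and total RNA, with 1 dot per library and a line at the mean of EpiLC (left, red) and nESC (right, blue). Neat1 in EpiLC lies below nESC in every fraction, Malat1 and Firre lie below it without overlap in nucleoplasm, and EpiLC cytoplasm replicate 3 is the highest of its group for all 7 genes.

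Among the DBHS genes, Sfpq and Pspc1 stood higher in EpiLC and Nono was at a like level in total RNA. Sfpq, which encodes the splicing factor SFPQ (PSF), held 230.3, 228 and 236 FPKM in total RNA of EpiLC and 115, 119 and 124 in nESC. The states did not overlap, and the EpiLC mean was 1.94 times the nESC mean. Its chromatin held 427, 338 and 269.6 FPKM in EpiLC and 383, 406 and 456 in nESC, its nucleoplasm 378, 374 and 368 in EpiLC and 204, 203 and 209 in nESC, and its cytoplasm 114, 118 and 137 in EpiLC and 50.4, 57.0 and 57.9 in nESC. Chromatin overlapped between the states, while nucleoplasm and cytoplasm were higher in all EpiLC libraries. Nono, the gene of the DBHS protein NONO (p54nrb), averaged 236 ± 3.26 FPKM in EpiLC total RNA and 231 ± 1.86 in nESC total RNA (SD, n = 3 each). It was the one member with its lowest level in chromatin, from 126 to 146 FPKM in EpiLC and from 111 to 126 in nESC, while nucleoplasm held 281 to 303 in EpiLC and 157 to 162 in nESC, and cytoplasm 283 to 296 in EpiLC and 187 to 194 in nESC. Pspc1 averaged 72.8 ± 3.00 FPKM in EpiLC total RNA and 55.9 ± 2.93 in nESC total RNA. In chromatin Pspc1 held 149, 93.3 and 73.3 FPKM in EpiLC and 55.4, 61.8 and 68.6 in nESC, so the EpiLC libraries spread over 2-fold, and chromatin replicate 3 was the lowest of its group for every member but Neat1. By group means, 1 member stood at least 2-fold apart between the states in chromatin (Neat1), 4 in nucleoplasm (Malat1, Neat1, Firre and Pspc1), 2 in cytoplasm (Neat1 and Sfpq, or 1 without nESC cytoplasm replicate 1) and 1 in total RNA (Neat1). Scaled to one sum per library, the 2 in cytoplasm were Sfpq (1.35) and Pspc1 (1.17) in place of Neat1, and Sfpq (1.18) joined Neat1 in total RNA. Of all genes, 10.1% to 13.1% stood at least 2-fold lower and 12.7% to 18.2% at least 2-fold higher in EpiLC, by fraction.

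Chromatin was compared with cytoplasm, the fractions farthest apart in the cell. A log2 fold is the limma estimate on log2(FPKM + 0.5), and calls needed both an adjusted p (Benjamini-Hochberg, over all genes tested) below 0.05 and a fold of at least 2. An FPKM is relative to the RNA of its own fraction, so a fold is not a share of molecules. All 7 members were called in EpiLC, 6 higher and 1 lower in chromatin, where 57.6% of 12834 genes were called, and 6 were called in nESC, all higher, where 61.5% of 12592 genes were. Malat1 had log2 folds of 4.40 (SE 0.22, adjusted p = 1.62e-09) in EpiLC and 4.81 (SE 0.09, adjusted p = 5.3e-13) in nESC, above 99.5% of the genes tested in EpiLC and 99.1% in nESC. With the listed 0 kept as a value, the nESC adjusted p of Malat1 was 0.0809. Neat1 rose by 1.78 (SE 0.13, adjusted p = 5.25e-08) in EpiLC and 3.47 (SE 0.13, adjusted p = 2.39e-11) in nESC. Tug1 rose by 2.38 (SE 0.17) in EpiLC and 3.42 (SE 0.08) in nESC, and Firre by 2.76 (SE 0.14) in EpiLC and 3.50 (SE 0.10) in nESC, with a limma adjusted p of 3.76e-08 at most. Of the protein genes, Sfpq rose by 1.46 (SE 0.14, adjusted p = 5.1e-07) in EpiLC and 2.90 (SE 0.08, adjusted p = 1.28e-12) in nESC, and Pspc1 by 1.08 (SE 0.20, adjusted p = 0.000244) in EpiLC and 1.33 (SE 0.09, adjusted p = 6.13e-09) in nESC. Nono fell by 1.06 in EpiLC (SE 0.08, adjusted p = 7.15e-08), and its log2 fold of -0.71 in nESC (SE 0.06, adjusted p = 1.27e-07) did not reach 2-fold. In EpiLC the calls on Pspc1 and Nono each rest on 1 library, with Pspc1 at 0.80 without chromatin replicate 1 (and at 0.88 with libraries centred on their medians) and Nono at -0.99 without chromatin replicate 3. Without replicate 3 of both EpiLC fractions, the libraries rich in mitochondrial messages and in nuclear RNA, Nono was at -0.97, Sfpq at 1.71 and Pspc1 at 1.44.

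The chromatin folds moved with the scaling and with a joint correction for gene length and GC. Scaling every library to one sum raised the median log2 fold of all genes by 1.69 in EpiLC and 1.81 in nESC and put Nono at 0.78 in EpiLC and 1.26 in nESC, higher in chromatin, so the direction of Nono holds only relative to the other genes. Malat1 was then at 6.24 in EpiLC and 6.78 in nESC. When each library was corrected for the exonic length and GC of its genes, 3 members were left as called in EpiLC, Malat1 at 3.27, Firre at 2.49 and Sfpq at 1.76. Of all genes 5909 of 12805 were then called, so the count of members is near the share of all genes. Neat1 (0.04), Tug1 (-0.08), Pspc1 (0.00) and Nono (-0.80) were no longer called in EpiLC. In nESC the long Neat1 stayed called at 1.36, and Tug1 (0.69) and Pspc1 (0.16) lost the call. Length and GC were corrected together, so their parts in the folds of these genes cannot be told apart and were not tested further.

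**Figure D2:**
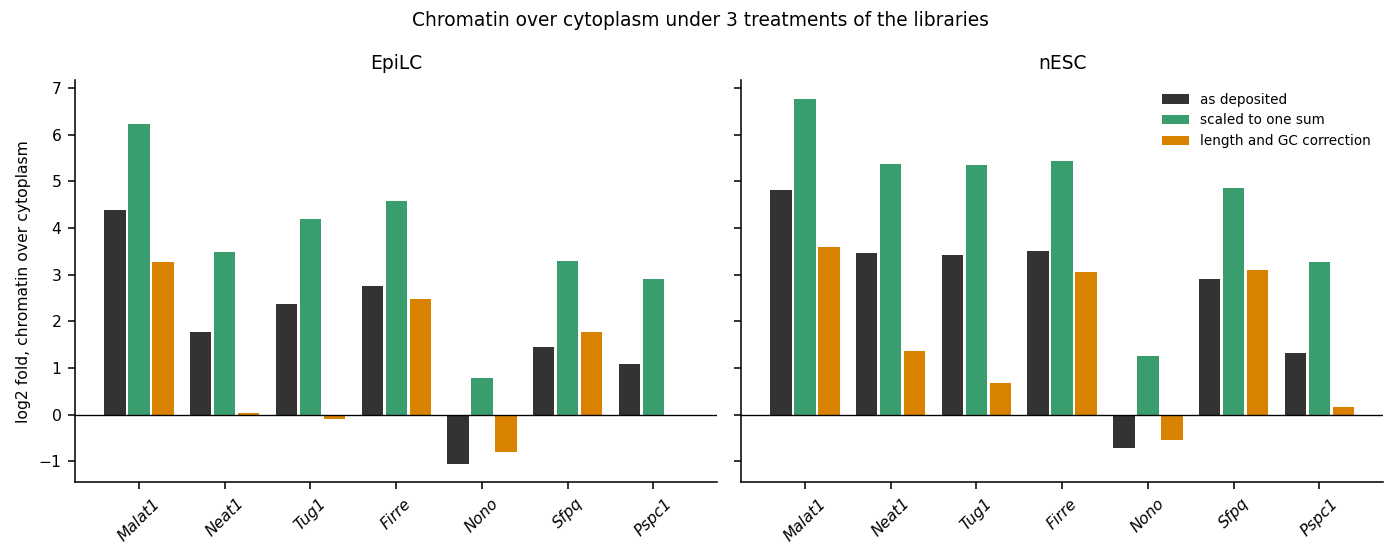
Log2 fold of chromatin over cytoplasm for each gene in EpiLC (left) and nESC (right), as deposited (black), with every library scaled to one sum (green) and after correction for exonic length and GC content (orange). Malat1, Firre and Sfpq are above 1 in all 3, Nono changes sign with the sum scaling, and Neat1, Tug1 and Pspc1 in EpiLC are near 0 after the correction.

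Nucleoplasm, meant to hold the RNA of the nucleus that is not bound to chromatin, was compared with cytoplasm. Its libraries held more of the 4 mitochondrial messages than cytoplasm did. In EpiLC they summed to 24580.0 to 41070.0 FPKM in nucleoplasm, against 5257 to 5711 in cytoplasm. In nESC they summed to 19350.0 to 21010.0 in nucleoplasm, against 9552 to 11400.0 in cytoplasm. The fraction was therefore not free of RNA from outside the nucleus, and its part in the folds was not tested. In EpiLC 4 of the 7 members were called, all higher in nucleoplasm, where 39.3% of genes were called, and in nESC 5 were, all higher, where 40% were. Malat1 rose by 2.95 (SE 0.22, adjusted p = 1.69e-07, limma) in EpiLC and 4.42 (SE 0.10, adjusted p = 2.1e-11) in nESC. Tug1 rose by 2.28 in EpiLC and 2.76 in nESC, Firre by 1.17 in EpiLC and 2.74 in nESC, and Sfpq by 1.60 in EpiLC and 1.89 in nESC, with adjusted p of 6.71e-06 or less. Neat1 was called in nESC and not in EpiLC, at -0.27 (SE 0.13, adjusted p = 0.0833) in EpiLC and 1.45 (SE 0.13, adjusted p = 3.19e-07) in nESC. Nono was at 0.00 (95% interval -0.175 to 0.179) in EpiLC and -0.26 in nESC, and Pspc1 at 0.90 in EpiLC and 0.65 in nESC, none of them 2-fold. With every library scaled to one sum Nono passed 2-fold at 1.03 in EpiLC and 1.00 in nESC, Pspc1 at 1.92 in EpiLC and 1.89 in nESC, and Neat1 in EpiLC was at 0.63. With the length and GC correction Neat1 in EpiLC was called lower in nucleoplasm, at -1.41 (adjusted p = 1.67e-06), and Tug1 in EpiLC was not called (0.21). In nESC 3 members were called after it, without Neat1 (0.26) and Tug1 (0.83), where 3335 of 12562 genes were. Without nucleoplasm replicate 3, 4 members were called in EpiLC, and Neat1 was at -0.39 (adjusted p = 0.0156), short of 2-fold. Without cytoplasm replicate 3, Pspc1 in EpiLC passed 2-fold at 1.03. With libraries centred on their medians Firre was at 0.99 in EpiLC, just short of 2-fold. With the listed 0 kept, Malat1 in nESC was at 0.13 (adjusted p = 0.963).

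Between the 2 nuclear fractions, 4 members were called in EpiLC, where 32.7% of genes were, and 2 in nESC, where 34.8% were. Neat1 was the member called in both, 2.05 (SE 0.13, adjusted p = 4.96e-08, limma) higher in chromatin in EpiLC and 2.02 (SE 0.13, adjusted p = 1.65e-08) in nESC on the log2 scale. Malat1 rose by 1.45 (SE 0.22, adjusted p = 8.49e-05) in EpiLC chromatin, with 0.39 in nESC, and Firre by 1.59 (SE 0.14, adjusted p = 5.94e-07), with 0.76 in nESC. Sfpq was at -0.14 (95% interval -0.441 to 0.161) in EpiLC and rose by 1.01 (SE 0.08, adjusted p = 8.22e-08) in nESC, or 0.94 without nESC chromatin replicate 3, which is under 2-fold. Nono fell by 1.06 (SE 0.08, adjusted p = 2.09e-07) in EpiLC chromatin, and was at -0.45 in nESC. That call was lost without chromatin replicate 3 (-0.99), after the length and GC correction (-0.99) and with libraries scaled to one sum (-0.26, adjusted p = 0.0529), where nESC was at 0.26. Tug1 was at 0.10 in EpiLC and 0.65 in nESC, and Pspc1 at 0.18 in EpiLC and 0.68 in nESC, not called in either state. With every library scaled to one sum 6 members were called in nESC, where 5786 of 12592 genes were. Without EpiLC nucleoplasm replicate 3, 4 members were called in EpiLC, Neat1 at 2.17 and Malat1 at 1.41 among them.

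Chromatin was also compared with total RNA. In EpiLC 3 members were called, Malat1 at 2.07, Neat1 at 1.73 and Firre at 1.57, all higher (adjusted p of 4.2e-06 or less, limma), where 31.9% of genes were called. In nESC 5 were called, Malat1 at 2.94, Neat1 at 1.99, Firre at 1.94, Sfpq at 1.79 and Tug1 at 1.40 (adjusted p of 1.28e-08 or less), where 44.8% were. Nono was lower in chromatin, at -0.77 in EpiLC and -0.98 in nESC, and Pspc1 was at 0.47 in EpiLC and 0.14 in nESC, none past 2-fold, though Nono in nESC was at -1.08 with libraries centred on their medians and -1.04 without chromatin replicate 1. With every library scaled to one sum 6 members were called in EpiLC, where 6422 of 12834 genes were, and Nono was at 0.07 in EpiLC and 0.02 in nESC. After the length and GC correction Neat1 lost the call in EpiLC (0.94), and Neat1 (0.61) and Tug1 (0.45) lost it in nESC. With the listed 0 kept, Malat1 in nESC had an adjusted p of 0.278.

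**Figure D3:**
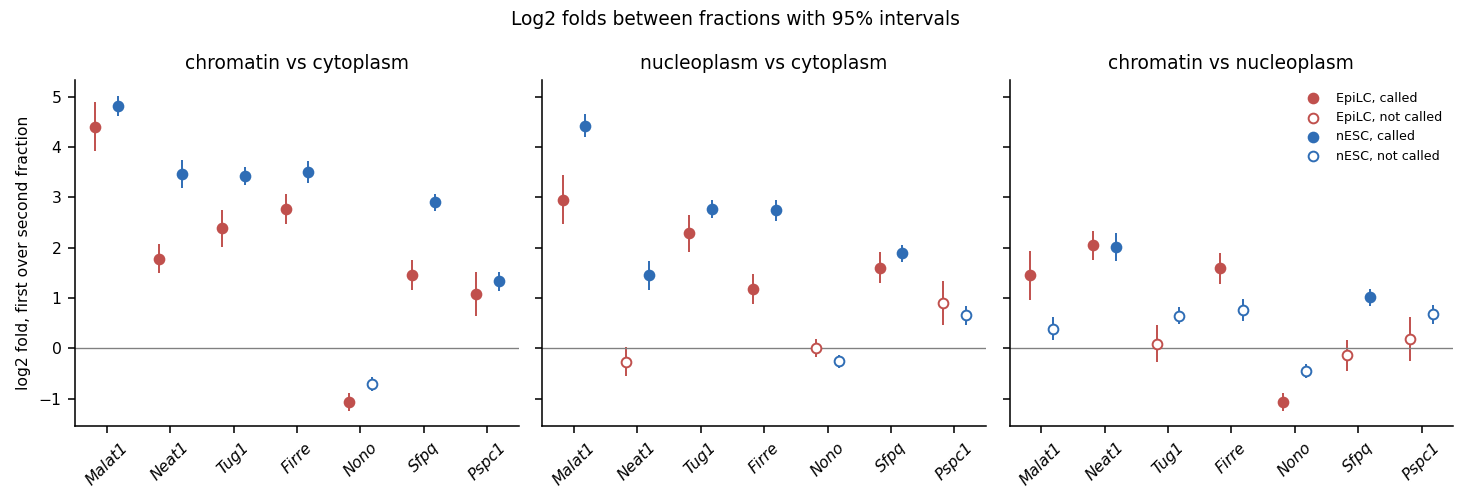
Log2 fold (points) with its 95% interval (bars) for chromatin over cytoplasm, nucleoplasm over cytoplasm and chromatin over nucleoplasm, for EpiLC (left, red) and nESC (right, blue), with called genes filled and others open. Neat1 in EpiLC is above 0 in chromatin but not in nucleoplasm, and Nono is at or below 0 throughout as deposited, which changes with the scaling to one sum.

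Whether a fold between fractions differed between the states was tested with an interaction term over the 12 libraries of 2 fractions, after centring each on its own median, so that the separate normalization of the tables does not enter. A negative value means a smaller fold in EpiLC. The states also differed in the messages that mark the fractions. Those of mitochondria summed to 3235 to 18480.0 FPKM in EpiLC and 1604 to 2572 in nESC in chromatin, to 24580.0 to 41070.0 in EpiLC and 19350.0 to 21010.0 in nESC in nucleoplasm, and to 5257 to 5711 in EpiLC and 9552 to 11400.0 in nESC in cytoplasm. Those of ribosomes and metabolism, given above, were lower in EpiLC cytoplasm and overlapped in chromatin. Their part in the differences below was not tested. For chromatin against cytoplasm 2 members were called, where 8.94% of 11704 genes were. Neat1 differed by -1.59 (SE 0.22, adjusted p = 0.000483, limma), with folds of 1.78 in EpiLC and 3.47 in nESC, and Sfpq by -1.34 (SE 0.20, adjusted p = 0.000871), with 1.46 in EpiLC and 2.90 in nESC. Both were called without EpiLC chromatin and cytoplasm replicates 3 as well, Neat1 at -1.56 and Sfpq at -1.13. Tug1 differed by -0.94 (adjusted p = 0.0176) and Firre by -0.64 (adjusted p = 0.0493), short of 2-fold, and Tug1 passed 2-fold with libraries scaled to one sum (-1.16) or not centred (-1.04). The values of Malat1 (-0.31, 95% interval -0.970 to 0.346), Nono (-0.25, -0.554 to 0.046) and Pspc1 (-0.15, -0.749 to 0.448) did not pass.

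For nucleoplasm against cytoplasm 3 lncRNAs were called, where 2.66% of genes were. Neat1 differed by -1.65 (SE 0.19, adjusted p = 0.000157, limma), Firre by -1.50 (SE 0.17, adjusted p = 0.000126) and Malat1 by -1.40 (SE 0.27, adjusted p = 0.00349). At most 0.5% of the genes tested had a lower value than any of the 3. Malat1 rests here on 2 nESC nucleoplasm libraries, and with the listed 0 kept its value was 2.88 (adjusted p = 0.579). Without EpiLC cytoplasm replicate 3 and chromatin replicate 3, Neat1 was at -1.57, Firre at -1.33 and Malat1 at -1.13, all still called. Without EpiLC nucleoplasm replicate 3 they were called as well, Neat1 at -1.77, Firre at -1.54 and Malat1 at -1.35. Tug1 was at -0.41 (adjusted p = 0.164), Sfpq at -0.22, Nono at 0.33 and Pspc1 at 0.31, none past 2-fold.

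For chromatin against nucleoplasm 2 members were called in opposite directions, where 7.78% of genes were. Malat1 differed by 1.09 (SE 0.28, adjusted p = 0.0141, limma) and Sfpq by -1.12 (SE 0.20, adjusted p = 0.00194). Each call was lost when 1 library was left out. Sfpq was at -0.97 without EpiLC chromatin replicate 3, and Malat1 at 0.95 without EpiLC chromatin replicate 1, at 1.05 with an adjusted p of 0.0566 without nESC nucleoplasm replicate 1, and at -3.19 with the listed 0 kept. Firre differed by 0.86 (adjusted p = 0.00252), Nono by -0.58 (adjusted p = 0.00677) and Tug1 by -0.53 (adjusted p = 0.0245), all under 2-fold. Neat1 was at 0.06 (95% interval -0.376 to 0.497), with folds of 2.05 in EpiLC and 2.02 in nESC.

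**Figure D4:**
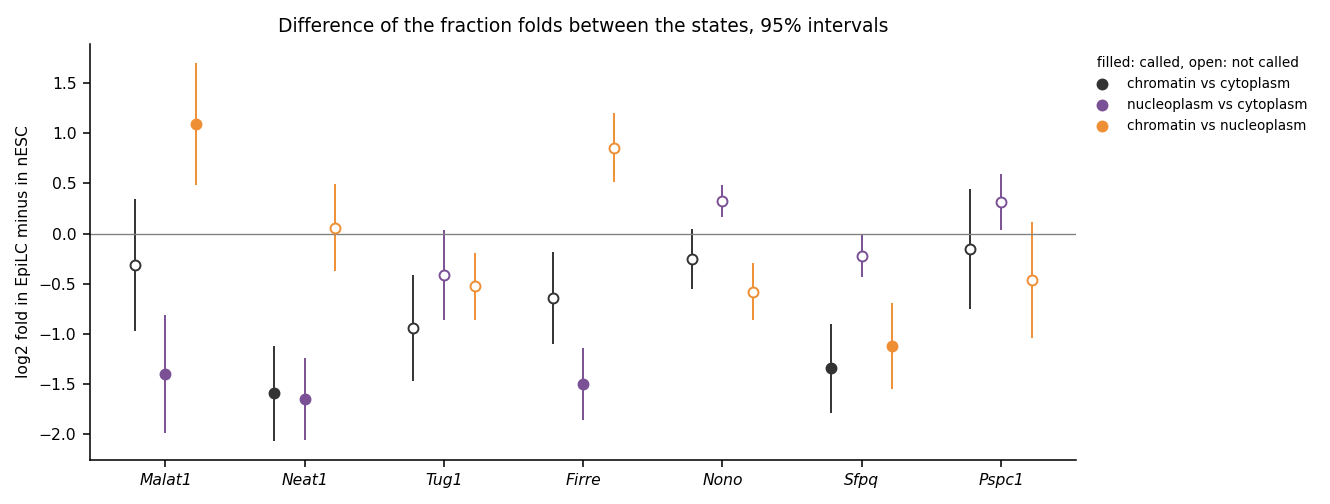
Log2 fold in EpiLC minus log2 fold in nESC (points) with its 95% interval (bars) for each gene and each pair of fractions, with called differences filled. Neat1, Firre and Malat1 are near -1.5 for nucleoplasm against cytoplasm, and Neat1 and Sfpq are the 2 called for chromatin against cytoplasm.

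Ratios of 2 members within a library do not change with any scaling of that library. Neat1 over Malat1, per length, had a log2 ratio of -7.89 ± 0.043 in EpiLC total RNA and -4.61 ± 0.020 in nESC total RNA (SD, n = 3 each), a difference of -3.28. In chromatin the log2 ratio was -8.13 ± 0.420 in EpiLC and -5.54 ± 0.333 in nESC, in nucleoplasm -8.87 ± 0.338 in EpiLC and -7.22 ± 0.173 in nESC (n = 2), and in cytoplasm -5.62 ± 0.333 in EpiLC and -4.27 ± 0.261 in nESC. The states did not overlap in any of the 4. Sfpq over Nono had a log2 ratio of -0.03 ± 0.044 in EpiLC total RNA and -0.95 ± 0.057 in nESC total RNA. As a geometric mean over libraries, here and below, the ratio was 0.980 in EpiLC and 0.516 in nESC. In cytoplasm it was 0.426 in EpiLC and 0.288 in nESC. In chromatin the order turned, with a ratio of 2.45 in EpiLC and 3.54 in nESC, and in nucleoplasm the ratios of 1.29 in EpiLC and 1.28 in nESC overlapped. Pspc1 over Nono was higher in EpiLC without overlap in nucleoplasm (0.308 in EpiLC, 0.241 in nESC), cytoplasm (0.164 in EpiLC, 0.127 in nESC) and total RNA (0.308 in EpiLC, 0.242 in nESC), and overlapped in chromatin. The ratios are given with their spread and no test. A single ratio has no fit across genes to draw on, and an exact two-sided permutation test of 3 against 3 libraries cannot give a p below 0.10.

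**Figure D5:**
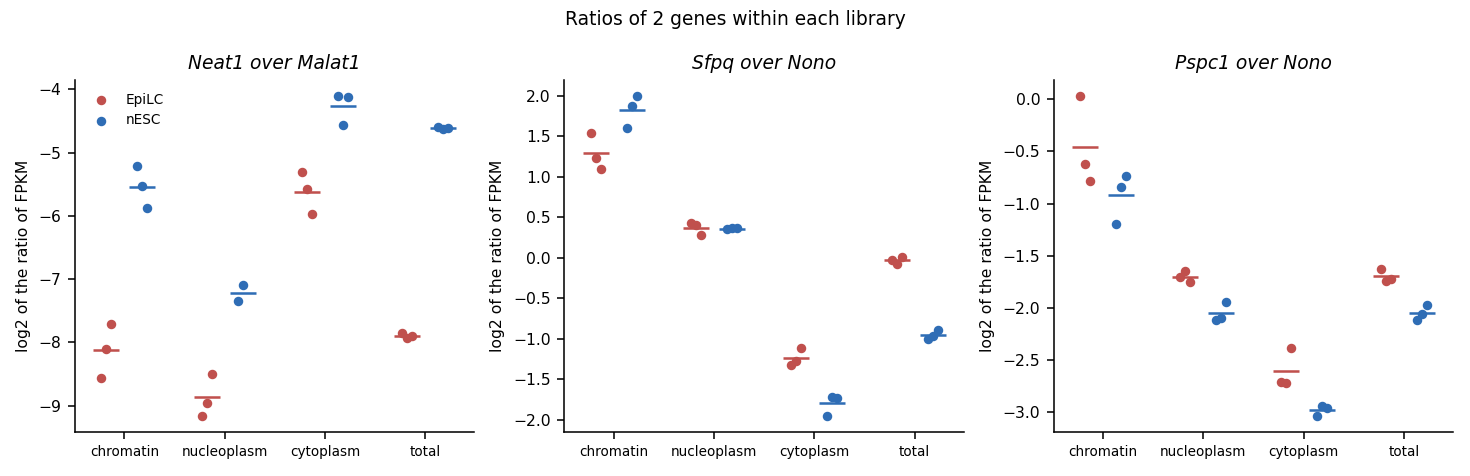
Log2 ratio of 2 genes' FPKM within each library (dots) and the mean (line) in EpiLC (left, red) and nESC (right, blue) for each fraction. Neat1 over Malat1 is lower in EpiLC in all 4 kinds of RNA, and Sfpq over Nono is higher in EpiLC total RNA and cytoplasm but lower in chromatin.

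The genes around the members were counted from lists chosen with earlier results of these data known. For chromatin against cytoplasm, 29.1% of all genes were called as higher in chromatin and 28.4% as lower in EpiLC, and 31.8% as higher and 29.7% as lower in nESC. The state difference was called with a smaller fold in EpiLC for 4.15% of all genes. Of 30 other paraspeckle proteins, 9 rose and 6 fell in EpiLC chromatin against cytoplasm (median log2 fold 0.52, against 0.00 over all genes), and 17 rose and 4 fell in nESC (median 1.08, against 0.04). The EpiLC count of genes that rose is near the share of all genes. The RNA-binding proteins Rbmx and Matr3 rose by 3.06 and 2.72 in EpiLC, while Nudt21, a polyadenylation factor, fell by 2.18 and Dazap1, an RNA-binding protein, by 2.02. In nESC Rbmx rose by 4.37, the splicing regulator Hnrnph1 by 4.24, the RNA-binding protein Taf15 by 2.94 and Matr3 by 2.72. The state difference was called for 7 of the 30, all with a smaller fold in EpiLC (median -0.58, against -0.02), among them Rbmx at -1.22 (SE 0.25, adjusted p = 0.00525, limma) and Hnrnph1 at -2.40 (SE 0.73, adjusted p = 0.0342), whose EpiLC cytoplasm libraries spread widely (187 ± 209.5 FPKM, SD, n = 3). Of 30 nuclear speckle proteins, 14 rose and 8 fell in EpiLC (median 0.25) and 18 rose and 6 fell in nESC (median 1.44), and the 8 that fell in EpiLC are near the share of all genes. Among those that rose were Rbm25 at 3.86 in EpiLC and 5.03 in nESC, Prpf4b, a splicing kinase, at 3.49 in EpiLC and 4.35 in nESC, and Luc7l3 at 3.24 in EpiLC and 4.08 in nESC. Magoh, an exon junction protein gene, fell by 3.24 in EpiLC, and Son, the speckle scaffold, rose by 4.31 in nESC. The state difference was called for 11 of the 30, all smaller in EpiLC (median -0.75), with Son at -1.27 (adjusted p = 0.0041) and Rbm25 at -1.07 (adjusted p = 0.031). With libraries scaled to one sum the median state difference of all genes fell by 0.20, in the direction of these lists.

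Of 16 other nuclear noncoding RNAs, 11 were tested in EpiLC and 9 in nESC, and Rmst was not analysed here. Chromatin was higher than cytoplasm for 9 of the 11 in EpiLC and 8 of the 9 in nESC, none was lower, and the median log2 fold was 2.55 in EpiLC and 3.17 in nESC. Kcnq1ot1, an imprinted antisense RNA, rose by 4.08 in EpiLC and 4.60 in nESC, the imprinted Meg3 by 3.53 in EpiLC and 4.67 in nESC and its neighbour Mirg by 2.86 in EpiLC and 4.12 in nESC. Xist, the RNA of X inactivation, rose by 3.29 in EpiLC and 3.69 in nESC. Nucleoplasm was called higher than cytoplasm for 1 of the 11 in EpiLC and 2 of the 9 in nESC. Of all genes, 20.1% were called higher in EpiLC and 20.5% in nESC. The nESC count is near that share and the EpiLC count is below it. The state difference for chromatin against cytoplasm was called for 2 of 9, Mirg at -1.16 and Meg3 at -1.04, where 8.94% of all genes were. That for nucleoplasm against cytoplasm was called for 1 of 9, where 2.66% of all genes were. It was Meg3 at -1.98 (limma adjusted p = 2.03e-05), chosen after its value was seen. Among 6 genes of reported Firre or Tug1 partners, Hnrnpu rose by 1.27 in EpiLC chromatin and 2.96 in nESC chromatin, a state difference of -1.59 (SE 0.27, adjusted p = 0.00182, limma). Suz12, a Polycomb subunit, rose by 3.09 in EpiLC and 3.69 in nESC. Jarid2, a Polycomb cofactor, was at 0.99 in EpiLC and rose by 2.31 in nESC (state difference -1.22, adjusted p = 0.00117), and Ezh2, the Polycomb methyltransferase, was at 0.77 in EpiLC and rose by 1.22 in nESC, a difference that did not pass (adjusted p = 0.381).

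Across libraries, the members fell into patterns that are given as descriptions, since all points share the fractionation. Over 23 libraries centred on their medians (Malat1's listed 0 left out), Pearson's r was 0.966 for Malat1 with Firre, 0.955 for Malat1 with Tug1 and 0.918 for Tug1 with Firre, while Neat1 had 0.499 with Malat1 and -0.826 with Nono. Sfpq had 0.866 with Malat1 and -0.430 with Nono. Among the 7829 or 7830 genes compared, the 3 most alike to Malat1 were Dst, Dcbld2 and Mbnl2 (r of 0.971 to 0.967), to Neat1 Hinfp, Mllt6 and Dpp7 (0.963 to 0.959), to Tug1 Fam126b, Macf1 and Aspm (0.990 to 0.988) and to Firre Caprin2, Atrn and Ehbp1 (0.978 to 0.974). Those most alike to Nono were Ubr7, Bzw2 and Rrn3 (0.984 to 0.977), to Sfpq Gon4l, Yeats2 and Prrc2c (0.978 to 0.970) and to Pspc1 Pde12, Stard4 and Cdk8 (0.957 to 0.943).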

How the data were processed

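TRIzol RNA of the 24 libraries was cleared of ribosomal RNA with Ribo-zero gold, prepared with a stranded TruSeq kit and sequenced on a HiSeq, per the labels' protocols. The deposited values are FPKM per gene, which the authors made with TopHat2 and Cuffnorm on mm10, per the submitters' processing notes. The sources used here give no tool versions, annotation, library normalization or use of strand. Each state has its own table of 12 libraries. Libraries were grouped by their labels, and all per-sample columns were used. Symbols, lengths and transcripts come from GENCODE M21 by Ensembl ID, and 29586 of 29759 genes matched.

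FPKM are not counts, so fractions were compared within a state on log2(FPKM + 0.5), with the 4 kinds of library fitted together, by two-sided moderated tests of limma 3.58.1 (R 4.3.3) with a mean-variance trend. Tested were genes whose 12 libraries averaged 1 FPKM or more, and p-values were adjusted over all of them. A 0 in 1 library whose other 2 had at least 5 FPKM was treated as missing. The fits were tested on simulated data. All 7 members are named. Of each list up to 4 called genes with the largest chromatin to cytoplasm folds per state and a mean of at least 5 FPKM are named, and the 3 most alike genes per member. Members, lists and tests were chosen with earlier results of these data known. Alternatives were other pseudocounts (0.1 and 1), filters, sum scaling, median centring, a spline of 5 degrees of freedom for length and GC, no trend, the replicate block and libraries left out.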

Additional observations from a re-analysis of the deposited data

Results flagged for a closer look

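The 7 results below differed between the states by a test of the difference itself (limma interaction, EpiLC minus nESC, each library centred on its median). For chromatin against cytoplasm, Neat1 differed by -1.59 and Sfpq by -1.34. For nucleoplasm against cytoplasm, Malat1 differed by -1.40, Neat1 by -1.65 and Firre by -1.50. For chromatin against nucleoplasm, Malat1 differed by 1.09 and Sfpq by -1.12. The Malat1 values rest on 2 nESC nucleoplasm libraries, since the replicate 3 value is listed at 0.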

How the results depend on the processing

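Of 1442 values of the 77 member folds under the alternatives, 1360 kept direction and call, 30 lost the call, 23 gained it and 29 changed sign. With the length and GC correction 3 members were called for EpiLC chromatin vs cytoplasm, 3 for nESC nucleoplasm vs cytoplasm and 3 for nESC chromatin vs total. Of all genes, 5909 of 12805, 3335 of 12562 and 4478 of 12562 were called in these comparisons. Signs changed for Tug1 (-0.0824 for EpiLC chromatin vs cytoplasm, -0.29 in EpiLC and -0.14 in nESC for chromatin vs nucleoplasm) and Pspc1 (-0.14 in EpiLC and -0.31 in nESC for nucleoplasm vs cytoplasm). With libraries scaled to one sum 6 members were called for EpiLC chromatin vs total (of all genes, 6422 of 12834) and 6 for nESC chromatin vs nucleoplasm (5786 of 12592). Under the same scaling 2 members were 2-fold apart between the states in total RNA, against 1 as deposited. Nono then changed sign for chromatin vs cytoplasm (0.78 in EpiLC, 1.26 in nESC), chromatin vs total (0.068 in EpiLC, 0.0245 in nESC), nESC nucleoplasm vs cytoplasm (1.00) and nESC chromatin vs nucleoplasm (0.26), Neat1 for EpiLC nucleoplasm vs cytoplasm (0.63) and Sfpq for EpiLC chromatin vs nucleoplasm (0.66). With median centring 1 member was called for nESC chromatin vs nucleoplasm (of all genes, 4367 of 12592), and Nono was at -0.18 for EpiLC nucleoplasm vs cytoplasm. With the listed 0 kept, the Malat1 state differences were 2.88 (nucleoplasm vs cytoplasm) and -3.19 (chromatin vs nucleoplasm), and 1 member was called for the state difference of chromatin vs nucleoplasm. Without EpiLC replicate 3 of chromatin and of cytoplasm that count was 1 as well, Sfpq was at 0.0243 for EpiLC chromatin vs nucleoplasm, and the state differences for chromatin vs cytoplasm were 0.11 for Malat1 and 0.17 for Pspc1. With a pseudocount of 1 the Neat1 state difference for chromatin vs nucleoplasm was -0.0482. The cause of these changes was not tested. Leaving out 1 library at a time gave 1 to 2 called members for nESC chromatin vs nucleoplasm and for the state difference of chromatin vs nucleoplasm, and 1 to 3 members 2-fold apart in cytoplasm. It gave -0.0332 to 0.0224 for Nono in EpiLC nucleoplasm vs cytoplasm, -0.31 to 0.0243 for Sfpq and -0.10 to 0.41 for Pspc1 in EpiLC chromatin vs nucleoplasm, and state differences of -0.42 to 0.0615 for Pspc1 (chromatin vs cytoplasm) and -0.0258 to 0.21 for Neat1 (chromatin vs nucleoplasm).

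Over all genes, scaling to one sum gave 92.7% of calls higher in chromatin in EpiLC and 91.8% in nESC for chromatin vs cytoplasm, against 50.6% in EpiLC and 51.7% in nESC as deposited. The shares for nucleoplasm vs cytoplasm, chromatin vs nucleoplasm and chromatin vs total were 95.9%, 90.6% and 90.2% in EpiLC and 97.9%, 84.1% and 87.6% in nESC, against 49.0% to 52.9% as deposited. Of the state differences called, 28.8% (53.5% as centred), 12.1% (42.1%) and 64.1% (51.2%) were higher in EpiLC, for chromatin vs cytoplasm, nucleoplasm vs cytoplasm and chromatin vs nucleoplasm, and without centring 40.6%, 29.7% and 45.5%. Counts moved over 1.5 times with one sum for EpiLC chromatin vs total (6422, against 4099) and the nucleoplasm vs cytoplasm state difference (528, against 311), with the length and GC correction for nucleoplasm vs cytoplasm (3282 in EpiLC, against 5038, and 3335 in nESC, against 5031), and with a mean of at least 5 FPKM for the state differences (619, 185 and 488, against 1046, 311 and 910). Centring put 40.2% of EpiLC and 38.0% of nESC nucleoplasm vs cytoplasm calls higher.

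The replicate block left all 77 member folds and the count of called members in every comparison as they were, with 7 called for EpiLC chromatin vs cytoplasm. The deviations of 24 pairs of same-numbered libraries correlated at -0.219 to 0.177, and 10 correlated best with their own number. Whether same-numbered libraries came from the same culture cannot be decided from these weak correlations. With 3 libraries a group, differences under 2-fold in members that vary between libraries, such as Pspc1 in EpiLC chromatin, are poorly resolved.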
